A study of Mus musculus with 14 samples.

Results

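Cytotoxic lymphocytes kill through granules that hold granzymes, a family of serine proteases, together with perforin, which forms pores in the target cell membrane and lets the granzymes in. The granzymes are activated and packed onto a proteoglycan inside the granule, the granule is then moved to the contact site and fused with the plasma membrane, and inhibitors in the cytosol protect the killer cell from its own enzymes. In T cells the program is best known from effector and memory CD8+ cells, and natural killer (NK) cells carry it constitutively. Here 10 genes of this program were followed, chosen by symbol: the granzyme genes Gzma, Gzmb, Gzmk and Gzmm, the perforin gene Prf1, and the genes of granule and companion proteins Srgn, Ctsw, Nkg7, Serpinb9 and Lamp1. All 10 are among the 24091 genes of the deposited counts, and all 10 had enough reads to be tested.

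The counts come from T cells (200000 per sample) sorted from the spleen of single mice, and the comparison asks how the T cells of blast crisis (BC) differ from those of chronic phase (CP) chronic myeloid leukemia. Both groups are SCLtTA/BCR-ABL transgenic mice of the C57Bl/6j background, male and female and aged 6 to 10 weeks, in which BCR-ABL was switched on by withdrawing tetracycline for 3 weeks and which received no other treatment. The 8 CP CML mice were Mir142+/+BCR-ABL and the 6 BC CML mice were Mir142−/−BCR-ABL, which lack the gene of the microRNA miR-142 in every cell. BCR-ABL is driven in these mice through the stem cell leukemia (SCL) enhancer, so the groups differ in Mir142 and share the leukemia transgene. The names of the mice carry 1 prefix in CP CML and another in BC CML, and the labels do not say what it marks, so whatever it marks cannot be told apart from genotype.

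Each library held between 15703702 and 19914531 reads. Mir142 (chr11:87756864-87756927) had 302 to 650 reads per library in CP CML and 0 reads in each BC CML library. Levels are given as CPM, the TMM-normalized count of a gene per 1000000 reads, and genes were tested with edgeR's quasi-likelihood test, with p-values adjusted over all 12248 tested genes and a threshold of 0.05. At that threshold 65.2% of all tested genes were called, with 32.6% of the tested genes higher in BC CML and 32.7% lower, so a call by itself is common in this comparison.

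The seed of a microRNA, bases 2 to 8, is the stretch that pairs with most target sites. The mature arms of the deleted gene are shown because their seeds (in capitals, from RefSeq, GRCm38.p6) were looked for in the 10 genes.
mmu-miR-142a-3p: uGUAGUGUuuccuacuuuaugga
mmu-miR-142a-5p: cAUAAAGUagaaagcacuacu
The longest GENCODE vM21 3′UTR of each gene ran from 67 bases in Gzma to 2109 bases in Serpinb9. In it none of the 10 genes held a site of at least 7 bases for either arm (ACACTAC or CACTACA for the 3p arm, ACTTTAT or CTTTATA for the 5p arm). ACACTAC and ACTTTAT match bases 2 to 8, and CACTACA and CTTTATA match bases 2 to 7 followed by an A. Over the 11503 tested genes with a 3′UTR, 12.1% held such a site for the 3p arm and 23.5% for the 5p arm. These genes were not matched to the 10 in 3′UTR length.

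Of the 10 cytotoxic granule genes, 8 were higher in BC CML, 1 was lower (Prf1) and 1 was not called (Gzmm). Among all tested genes 32.6% were higher and 32.7% lower. The median log2 fold change of the 10 genes was 1.10, against -0.01 for all tested genes. In 5 of them (Gzmb, Serpinb9, Gzma, Nkg7 and Ctsw) the rise was 1 or more on the log2 scale, and 10.1% of all tested genes rose that much. The 6 genes Gzma, Gzmb, Ctsw, Nkg7, Serpinb9 and Lamp1 had their lowest BC CML mouse above their highest CP CML mouse, which held for 19.3% of all tested genes, and 0 of the 10 had the opposite pattern, which held for 17.6%. In either direction the groups did not overlap for 36.9% of all tested genes. In libraries of whole T cells, more cells that carry a transcript and more of it per cell cannot be told apart.

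**Figure D1:**
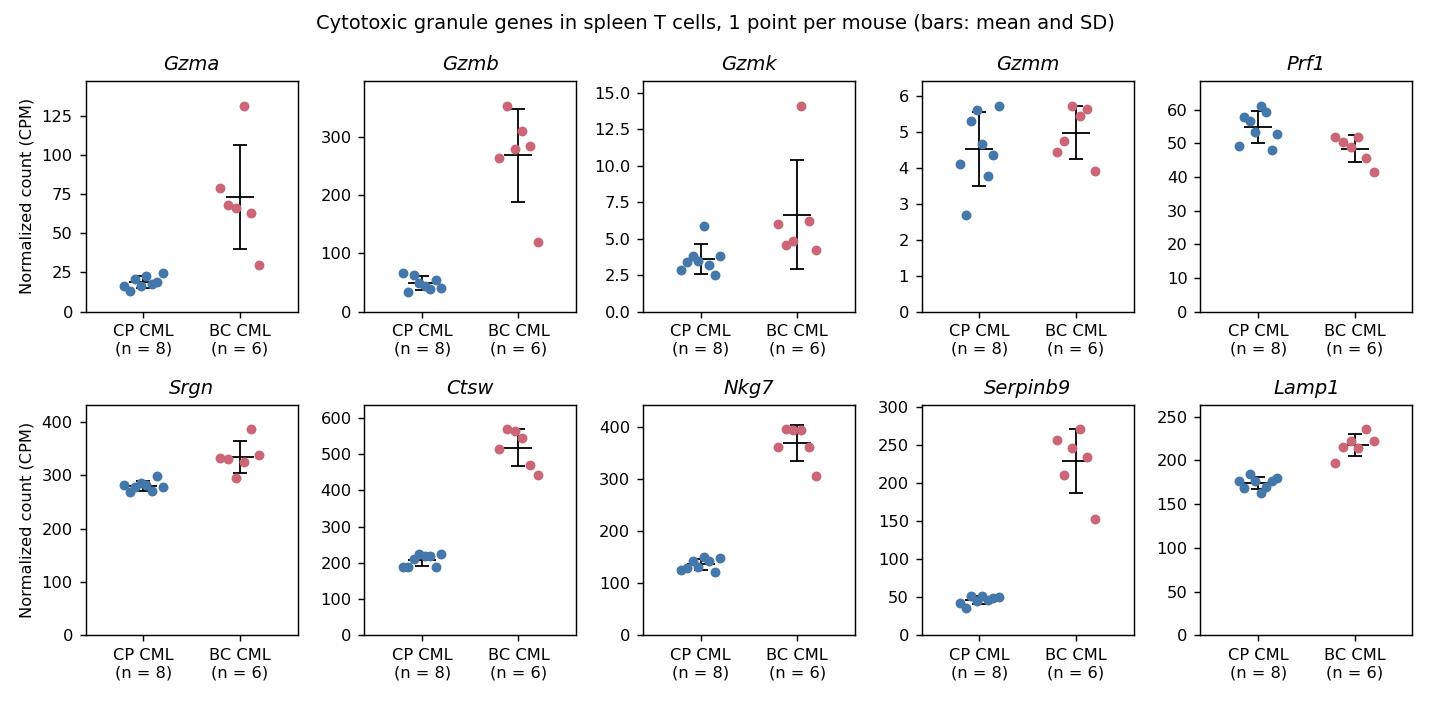
Normalized count (CPM, y axis from 0) of each cytotoxic granule gene in each mouse, with the mean and SD of the 8 CP CML and 6 BC CML mice. Gzmb, Gzma, Serpinb9, Ctsw, Nkg7 and Lamp1 do not overlap between the groups, and the Prf1 points of BC CML lie toward the lower end of the CP CML points.

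Gzmb (chr14:56258858-56262260) encodes granzyme B, which cuts after aspartate and starts apoptosis in the target cell. Its level in the CP CML mice ran from 34.0 to 66.6 CPM with a median of 46.8, and in the BC CML mice from 119 to 353 CPM with a median of 282. The groups did not overlap, although the lowest BC CML mouse, replicate 6, stood well below the other BC CML mice. The mean rose from 48.8 ± 11.7 CPM (SD, n = 8 mice) to 268 ± 79.4 CPM (SD, n = 6 mice), a log2 fold change of 2.46 (standard error, SE, 0.22, adjusted p = 4.53e-07, edgeR), which is 5.48-fold. The listed position of Gzmb lies within that of Snord58b, a small nucleolar RNA gene on the other strand with a mean of 23 reads per library and a listed span far longer than its listed length, and the strand setting of the counting is not given in the sources used here.

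Gzma (chr13:113093827-113100981) encodes granzyme A, a protease that cuts after basic residues. It ran from 13.1 to 24.8 CPM in CP CML (median 18.3) and from 29.9 to 131 CPM in BC CML (median 67.0). All BC CML mice were above all CP CML mice, with replicate 4 the highest and replicate 6 the lowest of the BC CML group. The log2 fold change was 1.95 (SE 0.26, adjusted p = 1.66e-05, edgeR), and it was 1.70 without BC CML replicate 4.

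Gzmk (chr13:113171874-113180897), which encodes granzyme K, a related protease, lies 70892 bases from Gzma on the same strand. It was expressed at a low level, from 2.51 to 5.86 CPM in CP CML (median 3.46) and from 4.22 to 14.1 CPM in BC CML (median 5.41). The groups overlapped, and BC CML replicate 4, the mouse with the highest Gzma, stood alone at the top. The log2 fold change of 0.88 (SE 0.26, adjusted p = 0.00708, edgeR) fell to 0.51 (SE 0.18, adjusted p = 0.0179) without that mouse.

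Gzmm (chr10:79689020-79695261) encodes granzyme M, which cuts after methionine and leucine and is known mainly from NK and innate-like lymphocytes. It had 2.69 to 5.72 CPM in CP CML (median 4.50) and 3.91 to 5.72 CPM in BC CML (median 5.09). The groups overlapped, with CP CML replicates 2 and 6 below all BC CML mice. The log2 fold change of 0.14 (SE 0.15, adjusted p = 0.45, edgeR) has a 95% interval from -0.17 to 0.44, which ends below the estimates for the other granzyme genes.

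The granzyme genes therefore differed in the size of their change, and the make-up of the granzyme mRNA differed between the groups. To compare genes, levels were divided by the gene length listed with the counts (CPM per kb). The summed level of the 4 granzyme mRNAs ran from 43.4 to 73.5 CPM per kb in CP CML and from 122 to 373 CPM per kb in BC CML. The share of Gzmb in that sum had a median of 56.9% in CP CML and 70.5% in BC CML, with overlapping mice, and the share of Gzma a median of 29.7% and 24.3%. Gzmk held 5.00% to 11.5% of the sum in CP CML and 1.77% to 4.81% in BC CML, without overlap. Gzmm held 4.17% to 6.66% in CP CML and 1.04% to 2.28% in BC CML, again without overlap. The smaller share of Gzmk stood beside a higher level of Gzmk itself. Gzmb and Gzma made up most of the sum, so the smaller shares of Gzmk and Gzmm largely follow from their rise and are not separate results.

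**Figure D2:**
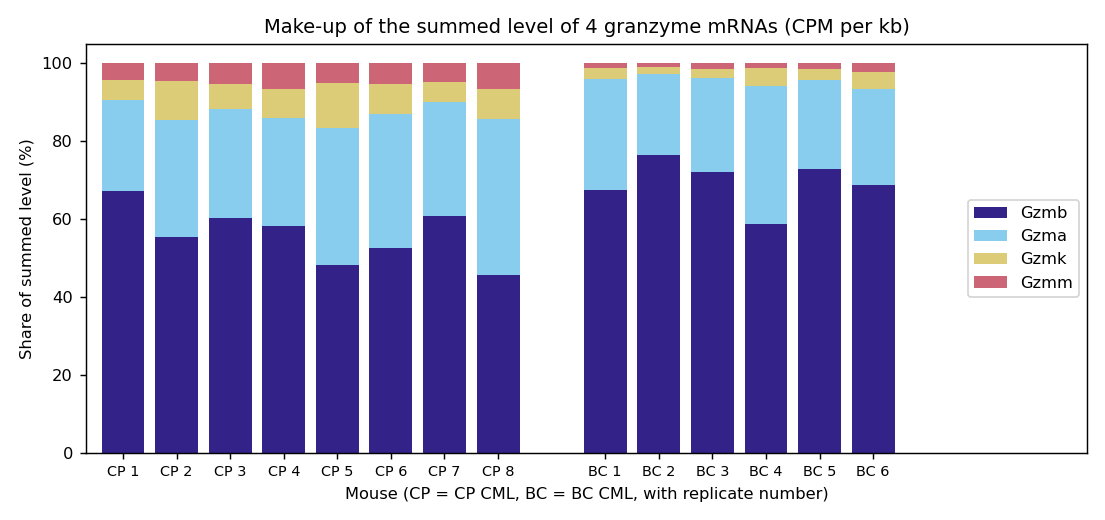
Share of Gzmb, Gzma, Gzmk and Gzmm (percent, y axis) in the summed level of these 4 mRNAs (CPM per kb), 1 bar per mouse. Gzmk and Gzmm together make a thinner band in each BC CML mouse than in any CP CML mouse.

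Prf1 (chr10:61297836-61304263), the perforin gene, was lower in BC CML, unlike Gzma, Gzmb and Gzmk. It ran from 48.0 to 61.2 CPM in CP CML (median 55.0) and from 41.6 to 51.9 CPM in BC CML (median 49.7). The groups overlapped, and 3 of the 6 BC CML mice were at or below 49.1 CPM. The mean was 54.8 ± 4.72 CPM (SD, n = 8) against 48.4 ± 4.07 CPM (SD, n = 6), and Prf1 fell by 0.18 on the log2 scale (SE 0.06, adjusted p = 0.0189, edgeR), which is less than the rise of any of the 8 higher genes. Without BC CML replicate 6 the log2 fold change was -0.14 and the adjusted p 0.0516, above the threshold. The level of Gzmb over that of Prf1, each per kb, ran from 0.899 to 2.07 in CP CML (median 1.29) and from 4.38 to 10.7 in BC CML (median 8.92), with no overlap. Gzma over Prf1 ran from 0.489 to 1.02 in CP CML and from 1.56 to 5.47 in BC CML, also with no overlap. Both ratios largely restate the rise of Gzmb and Gzma, since Prf1 changed little.

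**Figure D3:**
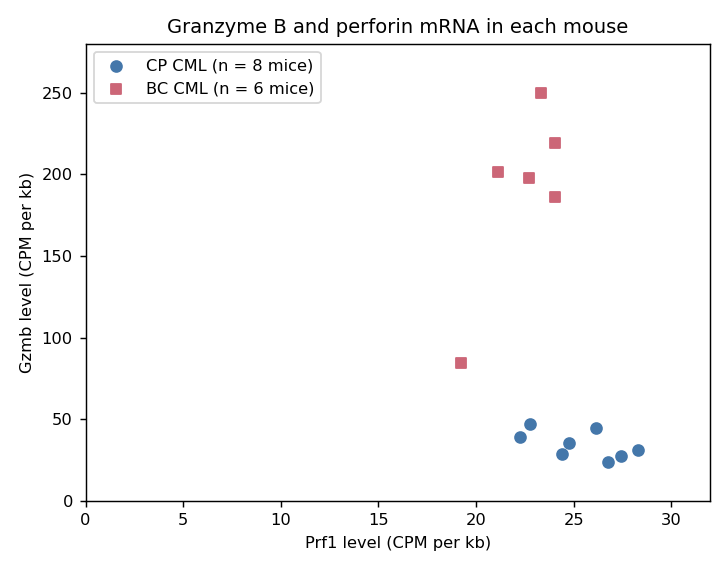
Level of Gzmb (y axis) against the level of Prf1 (x axis) in each mouse, both in CPM per kb. The BC CML mice lie between 84.3 and 250 CPM per kb for Gzmb and the CP CML mice between 24.1 and 47.2, while the ranges for Prf1 overlap.

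Srgn (chr10:62494428-62507755) encodes serglycin, the proteoglycan core that binds granzymes and perforin inside the granule and is also made by myeloid cells. It ran from 269 to 298 CPM in CP CML (median 280) and from 295 to 386 CPM in BC CML (median 331). Only 1 BC CML mouse, replicate 3, was within the CP CML range. The log2 fold change was 0.25 (SE 0.05, adjusted p = 0.000116, edgeR).

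Nkg7 (chr7:43437138-43438246) encodes a granule membrane protein that takes part in degranulation. It ran from 122 to 150 CPM in CP CML (median 137) and from 306 to 396 CPM in BC CML (median 379). The groups were far apart, with BC CML replicate 6 below the other BC CML mice. The log2 fold change was 1.43 (SE 0.06, adjusted p = 2.1e-12, edgeR).

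Lamp1 (chr8:13159161-13175338) encodes a lysosomal membrane protein, CD107a, that appears on the cell surface when granules are released and is made by most cells. It ran from 163 to 185 CPM in CP CML (median 177) and from 197 to 235 CPM in BC CML (median 219). The groups did not overlap, but the gap was narrow, and the log2 fold change was 0.32 (SE 0.04, adjusted p = 1.63e-06, edgeR).

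Ctsw (chr19:5465043-5468507) encodes cathepsin W, a papain-like cysteine protease found mainly in CD8+ T cells and NK cells. It had 190 to 225 CPM in CP CML (median 215) and 444 to 568 CPM in BC CML (median 530), with no overlap. The log2 fold change was 1.31 (SE 0.06, adjusted p = 6.71e-12, edgeR). Its listed position shares 10 bases with Fibp on the other strand.

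Serpinb9 (chr13:33004541-33017955) encodes the serpin that inhibits granzyme B and protects cytotoxic cells from it. It ran from 35.6 to 51.9 CPM in CP CML (median 48.1) and from 153 to 271 CPM in BC CML (median 241). The groups did not overlap, and the log2 fold change of 2.29 (SE 0.11, adjusted p = 1.64e-10, edgeR) was close to that of Gzmb. The level of Serpinb9 over that of Gzmb, per kb, ran from 0.270 to 0.521 in CP CML and from 0.249 to 0.537 in BC CML, with overlapping ranges. Related Serpinb9 paralogs exist in the mouse, and reads shared with them may have been assigned in ways that the counts do not show.

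The 10 genes differed widely in abundance. In CP CML the order of levels per kb began with Srgn (300 ± 9.63 CPM per kb, SD, n = 8), Nkg7 (169 ± 13.4) and Ctsw (146 ± 11.2) and ended with Gzmk (4.60 ± 1.29) and Gzmm (3.24 ± 0.735). In BC CML it began with Nkg7 (457 ± 43.5 CPM per kb, SD, n = 6), Ctsw (363 ± 36.1) and Srgn (357 ± 31.3), whose ranges overlapped, and ended again with Gzmk and Gzmm. Gzmb, Prf1, Gzma and Serpinb9 were neighbours in CP CML, in that order, each overlapping the next. In BC CML Prf1 stood below the other 3 and overlapped none of them.

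The spread between mice also differed by gene. The coefficient of variation in CP CML ran from 3.21% for Srgn to 27.9% for Gzmk, and in BC CML from 5.79% for Lamp1 to 56.2% for Gzmk, with 45.3% for Gzma and 29.6% for Gzmb. BC CML replicate 6 was the lowest of its group for 8 of the 10 genes, all but Srgn and Lamp1, and CP CML replicate 2 was the lowest of its group for 6. BC CML replicate 4 was the highest of its group for Gzma, Gzmk, Prf1 and Serpinb9. Without BC CML replicate 6, 8 genes were higher as before, with log2 fold changes of 2.61 for Gzmb and 2.11 for Gzma, and none was lower.

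The promoters of the members, from 250 bases before to 50 after each start, were searched on both strands for core letters of motifs known from lymphocyte genes. RefSeq promoters (GRCm38.p6) were at hand for 9 of the 10 genes, in 11 windows, all but Ctsw. The RUNX core TGTGGT was in 8 of the 11 windows (Gzma, Gzmb, Gzmm, Lamp1, Nkg7, Prf1, Serpinb9 and Srgn), against 16.8% of 32851 promoters. The T-box core AGGTGT was in 4 (Gzma, Gzmk, Nkg7 and Prf1), against 13.7%, and the AP-1 letters TGANTCA were in Gzmb alone, against 7.81%. The CRE letters TGACGTCA were in none, against 1.79%, and TATAAA was in 1, that of Srgn, against 13.6%. Windows of Gzmb, Gzma and Nkg7, which rose, and of Prf1, which did not, are shown with the matched letters in capitals, read along the strand of the gene (a match on the opposite strand reads ACCACA or ACACCT), to let their letters be compared.
Gzmb RUNX core, chr14:56262350-56262379, minus strand: gtgggttctgcTGTGGTtacttcatgattc
Gzmb AP-1, chr14:56262374-56262403, minus strand: tggtggttctcTGAGTCAttcgctgtgggt
Gzma RUNX core, chr13:113101013-113101042, minus strand: agaagaacaaaACCACAtcctttgcactct
Gzma T-box core, chr13:113101043-113101072, minus strand: tttccagctctACACCTggacatttgaaag
Nkg7 RUNX core, chr7:43437044-43437073, plus strand: ggcccacccctACCACAtaggaggagagga
Nkg7 T-box core, chr7:43437113-43437142, plus strand: gggggtagggaAGGTGTgagaagaatcaga
Prf1 RUNX core, chr10:61297695-61297724, plus strand: gggaacctgtgACCACActctgggggcagg
Prf1 T-box core, chr10:61297801-61297830, plus strand: attgacaacgcAGGTGTccccctgggcttc
Gzma, Nkg7 and Prf1 held both the RUNX and the T-box core. Gzmb, Gzmm, Lamp1, Serpinb9 and Srgn held the RUNX core without the T-box core, and Gzmk the T-box core without the RUNX core. A match of letters is a description of the sequence and does not show that a factor binds there.

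The wider granule pathway was examined in 4 lists with 50 genes in the counts, of which 44 were tested. In these lists 23 genes were higher, 10 lower and 11 not called, with a median log2 fold change of 0.30. Among all tested genes 32.6% were higher and 32.7% lower.

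Of the other granzyme genes of the mouse, which lie near Gzmb and are close copies of each other, Gzmc alone had enough reads. It went from 0.361 ± 0.0989 CPM (SD, n = 8) to 5.86 ± 1.20 CPM (SD, n = 6), a level well below that of Gzmb. It passed the filter on low counts through the BC CML mice alone, so its call, which is among the 23 above, had to be in the higher direction and is given as a description. Gzmd, Gzme, Gzmg and Gzmn had 0 reads in all mice and Gzmf at most 3. Reads that map equally well to several of these copies could have been lost or divided. The listed positions of Gzmc and Gzmd also lie within those of Gzmf and Gzme, on the same strand. These values are therefore uncertain.

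Of 12 tested genes of granzyme processing, sorting and inhibition, 8 were higher and 1 lower, against 32.6% and 32.7% of all tested genes. The largest rises were those of Ctsh, which encodes cathepsin H, an aminopeptidase (log2 fold change 1.58, SE 0.23), Sort1, the sorting receptor sortilin (1.36, 0.21), and Serpinb6b, an inhibitor related to Serpinb9 (1.33, 0.11). M6pr, a mannose 6-phosphate receptor that brings enzymes to lysosomes, fell by 0.13 on the log2 scale (SE 0.03). Ctsc, whose product removes the propeptide of granzymes, rose by 0.79 (SE 0.06) and Cst7, whose product cystatin F inhibits that enzyme, by 0.81 (SE 0.05). These last 2 genes were named after their values were seen.

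Of 16 tested genes of granule transport and secretion, 4 were higher, 5 lower and 7 not called, shares near those of all tested genes, with a median of 0.00 on the log2 scale. Kif5b, a kinesin motor (log2 fold change 0.49, SE 0.04), Arl8b, which links lysosomes to kinesin (0.48, 0.04), and Sytl3, a RAB27 effector (0.47, 0.17), rose. Rab27a, the GTPase that docks granules, fell by 0.59 on the log2 scale (SE 0.12), the SNARE gene Vti1b by 0.48 (SE 0.05), and Stxbp2, whose product holds the syntaxin of granule fusion, by 0.37 (SE 0.04).

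Of 15 genes of the lysosomal membrane and its enzymes, 10 were higher and 4 lower, against 32.6% and 32.7% of all tested genes. Cd63, a tetraspanin of lysosomes and granules, had the largest rise, from 1.14 ± 0.647 CPM (SD, n = 8) to 8.36 ± 1.74 CPM (SD, n = 6), a log2 fold change of 2.88 (SE 0.26). Scarb2, a receptor that carries glucocerebrosidase (log2 fold change 1.11, SE 0.05), and Ctsz, a cathepsin (0.95, 0.07), also rose. The cholesterol carrier gene Npc2 fell by 0.65 on the log2 scale, the cathepsin A gene Ctsa by 0.46, and Gaa, the acid glucosidase gene, by 0.30. Lamp1, with 0.32, lay below the median of this list (0.49).

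**Figure D4:**
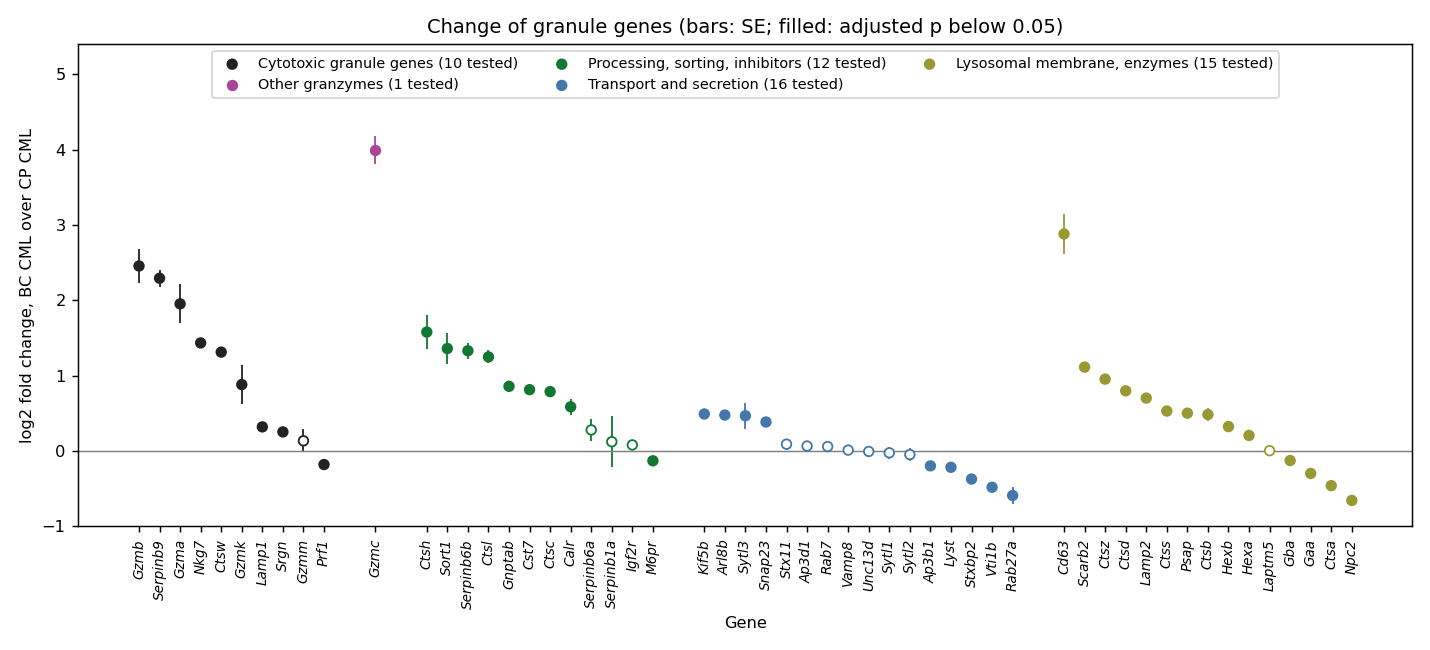
Log2 fold change of BC CML over CP CML (y axis) with its SE for the 10 cytotoxic granule genes and the 44 tested genes of the 4 other lists. Filled points passed an adjusted p of 0.05. Prf1 and the fallen transport genes lie below 0, opposite to Gzmb, Serpinb9 and Gzma. Gzmc passed the filter through BC CML alone, which fixed its direction.

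Some markers of T cell subsets and of other cells also differed between the groups, where 32.6% of all tested genes were higher and 32.7% lower. Cd8a rose from 689 ± 64.3 CPM (SD, n = 8) to 1263 ± 160 CPM (SD, n = 6), a log2 fold change of 0.87 (SE 0.08), while Cd8b1, the other CD8 chain, had 0.07 (SE 0.06, adjusted p = 0.352, edgeR) and Cd4 fell by 0.73 (SE 0.09). All 7 naive T cell markers were lower, with a summed level from 4890 to 6238 CPM in CP CML and from 2683 to 3852 CPM in BC CML. Of the 6 T cell identity genes, 3 were higher and 1 lower, with a sum from 1859 to 2033 CPM in CP CML and from 2106 to 2371 CPM in BC CML. With the mean log2 level of Cd8a and Cd8b1 as a covariate, 6 of the 8 genes passed the threshold in the higher direction. Gzma (log2 fold change 1.10, adjusted p = 0.115, edgeR) and Gzmk (0.21, adjusted p = 0.791) did not, and Prf1 was lower (-0.43, SE 0.11, adjusted p = 0.00628). That covariate had a correlation of 0.87 with the group across the 14 mice.

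Of 7 NK cell markers, 6 were tested and all 6 were higher in BC CML, against 32.6% of all tested genes. Klra8 among them passed the filter through the BC CML mice alone and could only be higher. The summed level of the NK cell markers ran from 63.2 to 83.6 CPM in CP CML and from 199 to 332 CPM in BC CML. Ncr1, which encodes the NK receptor NKp46, went from 2.61 ± 0.953 CPM (SD, n = 8) to 10.5 ± 6.00 CPM (SD, n = 6), and Klra4 had 0 reads in all mice. Klrb1c, Klre1, Klri2, Klra8 and Klra9 lie together on chromosome 6 (128778485 to 130335817) and Ncr1 on chromosome 7. The part of this shared location in their values was not tested. Several of these receptors are also carried by subsets of T cells. The paper sorted CD3+ spleen T cells for its metabolomics, but the gate for these libraries is not given in the sources used here beyond T cells. NK cells in the libraries and such T cells therefore cannot be told apart. The mean log2 level of the 6 tested NK markers, Klra8 included, was used as a covariate. With it none of the 10 genes passed the threshold in the quasi-likelihood test (log2 fold change 1.80 for Gzmb with an adjusted p of 0.517, 1.90 for Serpinb9 with 0.137, and -0.34 for Prf1 with 0.692). Only 156 genes in all were higher and 36 lower. This covariate had a correlation of 0.98 with the group, so the difference in these markers and the difference in genotype cannot be told apart. Klra8, whose direction the filter fixed, had the largest log2 fold change of the tested NK markers (6.73), and no fit without it was made.

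Neutrophil and monocyte markers were also higher in BC CML for 9 of 10 genes, against 32.6% of all tested genes. Their sum ran from 62.7 to 620 CPM in CP CML and from 728 to 1896 CPM in BC CML. With their mean log2 level as a covariate 8 of the 10 granule genes were higher as before, with log2 fold changes of 2.79 for Gzmb and 0.23 for Srgn, and Prf1 was not called (-0.13, adjusted p = 0.255, edgeR). B cell markers were higher for 5 of 6 genes, with a sum from 33.3 to 125 CPM in CP CML and from 63.5 to 362 CPM in BC CML. Of the basophil and mast cell markers, 1 of 4 tested genes was higher, with a sum of at most 7.36 CPM in CP CML and 18.5 CPM in BC CML. Erythroid markers were higher for 1 of 4 tested genes, with sums from 15.6 to 63.6 CPM in CP CML and from 41.5 to 72.0 CPM in BC CML. Among markers of gamma delta and invariant T cells, Zbtb16 was lower and Cd163l1 higher, with a sum from 17.5 to 22.0 CPM in CP CML and from 22.8 to 134 CPM in BC CML. BC CML replicate 6, with the lowest level of 8 granule genes, had the highest sums of neutrophil and monocyte (1896 CPM) and B cell markers (362 CPM), and the part of these cells in its values was not tested.

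**Figure D5:**
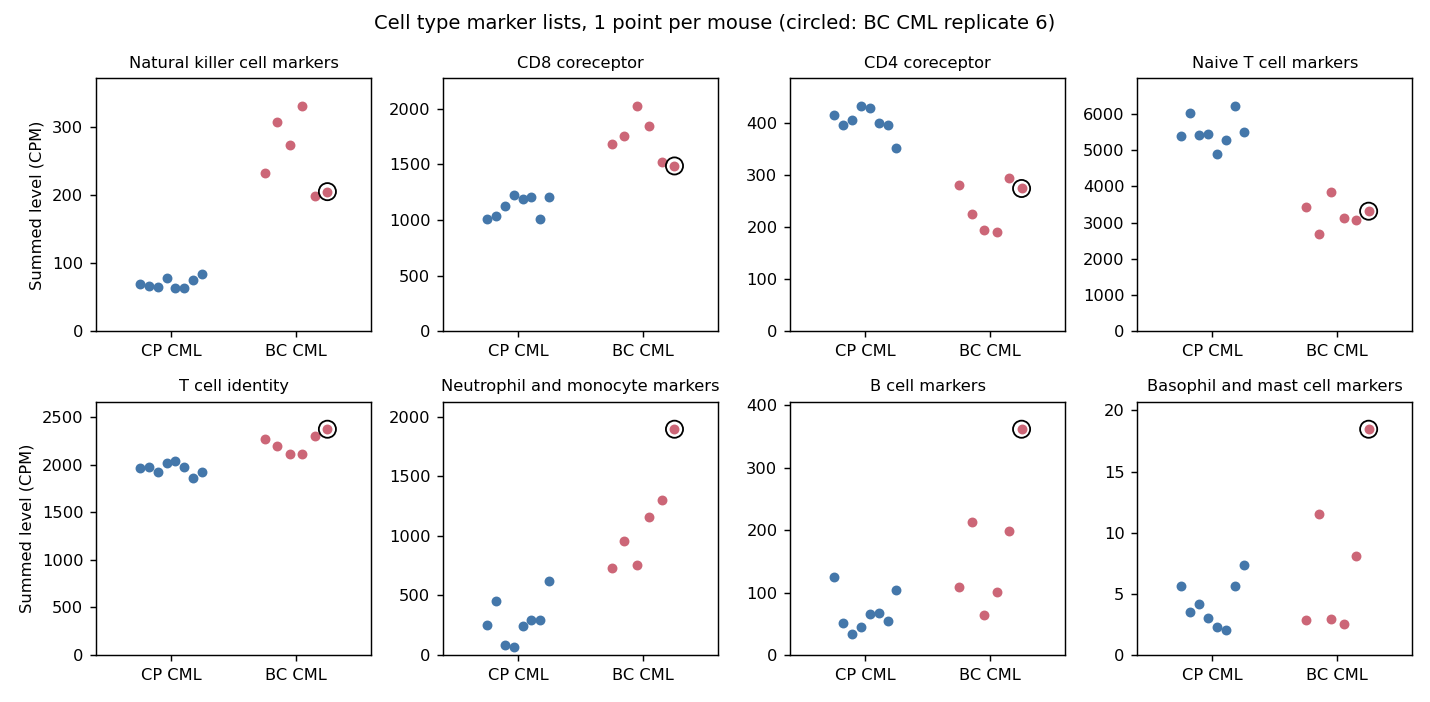
Summed level (CPM, y axis from 0) of 8 marker lists in each mouse, with BC CML replicate 6 circled. The sums of the NK markers, the CD8 genes, the neutrophil and monocyte markers and the T cell identity genes lie higher, and Cd4 and the sum of the naive T cell markers lower, in each BC CML mouse than in any CP CML mouse, and the B cell and basophil sums overlap.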

How the data were processed

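The authors trimmed reads (Trimmomatic for adapters, FASTP for polyA tails), aligned reads of 101 bases to mm10 with STAR 2.6.0, counted them per gene with HTSeq-count 0.11.1, and deposited raw counts, 1 library per mouse, with gene positions and lengths. The counting annotation and strand setting are not given in the sources used here. Columns were matched to mice by the sample labels.

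Genes passing filterByExpr (12248) were scaled by TMM and tested by edgeR 4.0.16 (quasi-likelihood, robust, R 4.3.3) for BC CML against CP CML over all 14 mice, without covariates. Standard errors (SE) come from the fold change and F statistic, and intervals are 1.96 standard errors. In simulated counts with 200 of 12248 genes changed by 1 on the log2 scale for this comparison, 189 were recovered with 10 other calls. In the data 65.2% of tested genes were called, a setting that this simulation did not cover. Replicates of a group differed by more than sampling noise (chi-square per degree of freedom of at least 2.99, where noise gives 1). The paper's likelihood ratio test, DESeq2 1.42.0, other scalings and filters, the replicate block, 3 marker covariates (log2 CPM, prior count 2) and each mouse left out were alternatives.

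Members, lists and motifs were chosen with earlier results of these data known. All members were named, and of each pathway list the 3 higher and 3 lower called genes with the largest change.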

Additional observations from a re-analysis of the deposited data

Results flagged for a closer look

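Among 40 groups of values (the 10 genes and 10 marker sums in each group of mice), 5 held a mouse far from the others of its group relative to their range, where chance gives about 2. Gzmk in CP CML replicate 5 had 5.86 CPM against 3.84 CPM in the next highest mouse, and Gzmk in BC CML replicate 4 had 14.1 CPM against 6.23 CPM. Nkg7 in BC CML replicate 6 had 306 CPM against 363 CPM in the next lowest mouse. Cd4 in CP CML replicate 8 had 352 CPM against 397 CPM in the next lowest. The summed gamma delta and invariant T cell markers in BC CML replicate 2 had 134 CPM against 41.4 CPM in the next highest, a mouse that was also the highest of its group for Gzmb, Ctsw and Nkg7.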

How the results depend on the processing

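For all 10 genes the direction and the side of the threshold were as reported with the likelihood ratio test, DESeq2, RLE factors, library size alone, no filter, and a filter keeping genes over 1 CPM in 6 or more libraries. Mice that share a replicate number are different animals and did not deviate together (mean correlation of deviations -0.024 over 6 pairs), and with the replicate block the log2 fold change was 2.41 for Gzmb and -0.22 for Prf1, with no call changed among the 10.

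With the CD8 covariate 2621 genes were higher and 2333 lower, against 3987 and 3999, 5 genes of the other granule lists were lower, against 10, and Gzmm was reversed at -0.36. With the NK covariate, which includes Klra8, 156 genes were higher and 36 lower, and 0 granule genes were higher and 0 lower. Of the other granule lists 1 gene was higher and 0 lower. Gzma (-0.041), Gzmk (-0.55) and Gzmm (-0.54) were reversed, with standard errors of 1.23, 1.34 and 0.77. With the neutrophil and monocyte covariate 0 granule genes were lower. The correlation of the 3 covariates with the group ran from 0.73 to 0.98. With each mouse left out in turn, 8 granule genes were higher in all 14 fits, and the number lower ran from 0 (without BC CML replicate 6) to 1. Depth limits Gzmm (44 to 112 reads per library) and Gzmk (41 to 270) most.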
